A study of Oryza sativa with 6 samples.

Results

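The plasma membrane intrinsic proteins (PIPs) are the aquaporins of the plant cell surface, and the transcripts of 10 rice PIP genes were followed in roots exposed to ferulic acid (FA). The genes were PIP1-1 (Os02g0666200), PIP1-2 (Os04g0559700), PIP1-3 (Os02g0823100), PIP2-1 (Os07g0448800), PIP2-2 (Os02g0629200), PIP2-3 (Os04g0521100), PIP2-4 (Os07g0448100), PIP2-5 (Os07g0448200), PIP2-6 (Os04g0233400) and PIP2-7 (Os09g0541000). These are the genes usually written PIP1;1 to PIP1;3 and PIP2;1 to PIP2;7, and RefSeq's spelling with a hyphen is used here. They were chosen by locus name, and every microarray probe carrying one of these names was taken, which gave 30 of 42418 probes and 10 of 29689 loci. All 10 names were found among the gene synonyms of RefSeq (assembly ASM3414082v1), where PIP1-1 is also called RWC1 and PIP1-3 RWC3.

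Aquaporins are membrane channels of the major intrinsic protein (MIP) family that let water, and in some members small uncharged solutes, pass along an osmotic gradient. PIPs sit in the plasma membrane and fall into a PIP1 and a PIP2 group. PIP2 proteins of many plants conduct water well on their own when made in frog oocytes, whereas maize PIP1 proteins reach the membrane together with PIP2 partners. In roots they are part of the path by which water crosses cells on its way to the xylem. The tonoplast intrinsic proteins (TIPs) are channels of the vacuole membrane, the NOD26-like intrinsic proteins (NIPs) include metalloid channels such as the silicon transporter Lsi1, and the small basic intrinsic proteins (SIPs) are found in internal membranes.

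Seedlings of the rice cultivar TN-67, aged 6 days, were given 50 ppm FA, a phenolic acid that rice itself releases, or water. Short exposure was a pool of RNA from 1 and 3 h of treatment, and long exposure lasted 24 h. Each of 6 arrays set Cy5-labelled RNA of FA-treated root tips against Cy3-labelled RNA of water-treated ones, with 3 biological replicates per exposure and no exchange of dyes. All values below are log2 ratios of FA over control for 1 probe on 1 array unless another quantity is named, so 0 is no difference and 1 is a doubling.

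The arrays of 1 exposure resembled each other more than those of the other. Across 27017 probes the log2 ratios of 2 arrays correlated with r of 0.90 to 0.91 within short exposure, 0.73 to 0.78 within long exposure and 0.33 to 0.47 between exposures, where probes are not independent replicates. The short-exposure arrays lay on 2 slides and the long-exposure arrays on another, so slide and exposure cannot be told apart. This layout is that of the scanner files, whereas the study's methods describe independent slides for the replicates. Root genes were detected throughout: all 3 root markers, RCc3 among them, were well above background on every array. Of 5 green-shoot markers only CAB1R, with a mean signal of 121, was well above background on every short-exposure array, and none was on every long-exposure array. In such pieces of tissue, fewer cells of a type and less RNA per cell cannot be told apart.

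The transcripts of 9 of the 10 PIP genes were well above background in both channels on all 6 arrays, over 26 probes. PIP2-7 was the exception. None of its 4 probes was well above background on more than 1 of the 6 arrays, the mean signals were 7.90 to 34.6, and the scanner software listed the ratio of the brightest one at exactly 0 on 4 arrays. No fold is therefore given for PIP2-7, and the counts below are over the 9 measured loci, each represented by its probe with the highest mean signal.

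**Figure D1:**
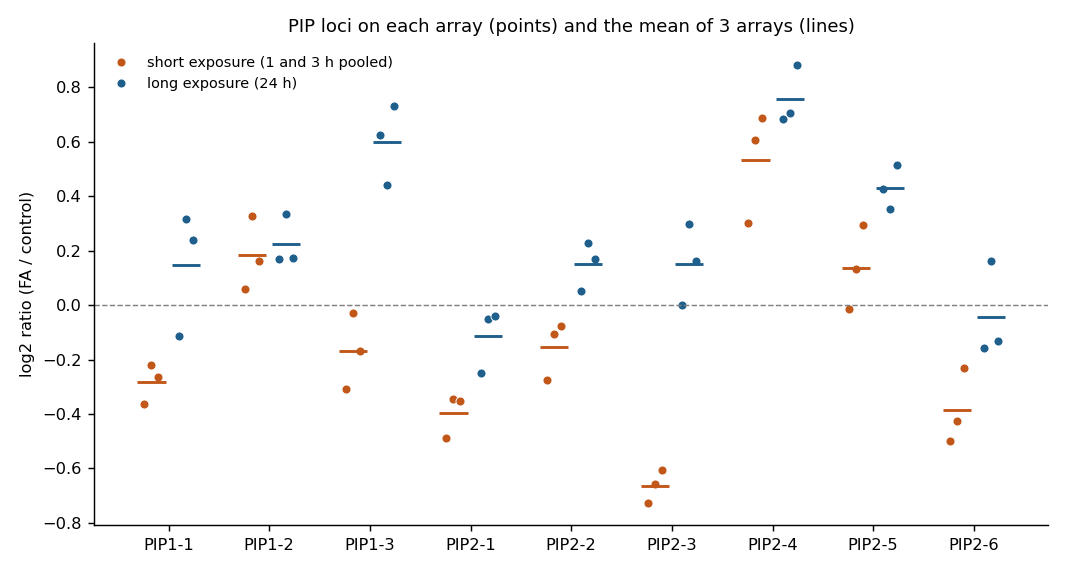
Log2 ratio of FA over control (vertical axis) for the 9 measured PIP loci, with 1 point per array and a line at the mean of 3 arrays, short exposure in orange and long exposure in blue. The short-exposure points lie below the long-exposure points without overlap at 7 loci, and overlap them at PIP1-2 and PIP2-4.

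After short exposure 6 of the 9 measured PIP loci averaged below the control level and 3 above it. PIP2-3, PIP2-1, PIP2-6 and PIP1-1 fell, PIP2-4 rose, and the other 4 measured loci did not pass an adjusted p of 0.1 (limma, Benjamini-Hochberg over 27773 tested probes). Over all 19101 tested loci 39.7% were called lower and 28.3% higher, against 4 and 1 of the 9 PIP loci. The count of lower PIP loci was near this background with the deposited ratios, but it was 6 with normexp and loess, when 30.9% of all tested probes were lower, and 6 with all arrays in one fit, when 42.0% were. The median of the PIP loci was -0.17 and that of all loci -0.09. Most PIP probes were bright. Among the 1274 tested loci with a mean signal of at least 10000, 31.6% were lower and 27.7% higher, with a median of -0.0019. No PIP locus changed 2-fold, as 9.61% of all loci did. The balance of calls depends on how arrays are centred: 41.3% of the called probes were higher with the deposited ratios, 51.4% after centring each array on its median and 52.5% with normexp and loess.

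PIP2-3 had the largest decrease among the PIP loci. Its ratio was -0.73, -0.66 and -0.61 on the 3 short-exposure arrays. The processed control signal of its probe was 15578, 11042 and 12201, and the FA signal 9411, 6994 and 8008, so the FA channel was the dimmer one on every array. The mean was -0.66 ± 0.06 (SD, n = 3), a drop to 0.631-fold of the control (adjusted p = 0.00090, limma), and 9.31% of all tested loci had a lower mean. The next locus in order, PIP2-1, was at -0.49, -0.34 and -0.35, and the 2 sets of values did not overlap.

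PIP2-1, whose probe gave control signals of 52837 to 63371 on these arrays, fell to 0.761-fold (-0.39 ± 0.08, SD, n = 3, adjusted p = 0.0063, limma). PIP2-6 read -0.50, -0.43 and -0.23 and fell to 0.765-fold (adjusted p = 0.010). PIP1-1 read -0.36, -0.22 and -0.26 and fell to 0.823-fold (adjusted p = 0.021). These 3 loci overlapped each other in their array values, and all 9 array values were below 0. Without the short-exposure array of replicate 1, PIP1-1 was at -0.24 with an adjusted p of 0.12.

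PIP2-4 went the other way. Its FA signal was 3573, 3565 and 3138 against 2897, 2342 and 1948 in the control channel, which gave ratios of 0.30, 0.61 and 0.69. The mean of 0.53 ± 0.20 (SD, n = 3) is a 1.45-fold increase (adjusted p = 0.0055), with the FA channel the brighter one on every array. The methods' t-test gave it an adjusted p of 0.101, just outside the limit.

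The 4 loci that did not pass were PIP1-3 at -0.17 ± 0.14, PIP2-2 at -0.15 ± 0.11, PIP2-5 at 0.14 ± 0.15 and PIP1-2 at 0.18 ± 0.14 (mean ± SD, n = 3 each). PIP1-3 and PIP2-2 were below 0 on all 3 arrays and PIP1-2 above 0 on all 3, while PIP2-5 lay on both sides. A second probe of PIP2-2 averaged -0.18 with an adjusted p of 0.079 and so passed. Some alternative settings also moved these 4 loci. PIP1-3 and PIP2-2 passed as lower with normexp and loess, and PIP1-2 and PIP2-5 as higher with median centring. Ordered from low to high, neighbouring loci overlapped in their array values except at 2 steps, between PIP2-3 and PIP2-1 and between PIP2-2 and PIP2-5.

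**Figure D2:**
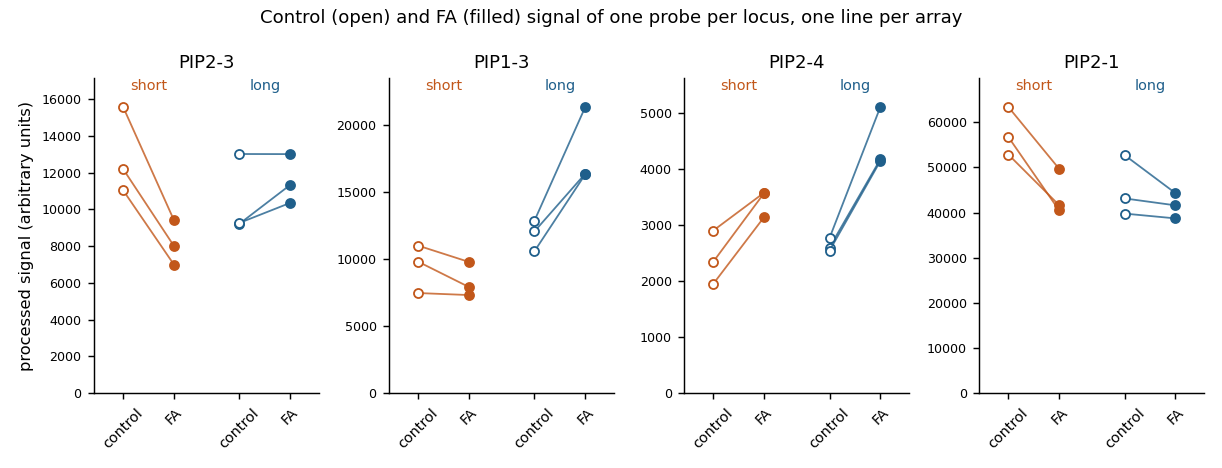
Processed signal in arbitrary units (vertical axis from 0) of the brightest probe of PIP2-3, PIP1-3, PIP2-4 and PIP2-1, with the control channel as open and the FA channel as filled points and 1 line per array. Lines fall on all 3 short-exposure arrays for PIP2-3 and PIP2-1, rise on all 3 long-exposure arrays for PIP1-3, and rise on all 6 for PIP2-4. Heights are not comparable between panels, since each probe binds its target differently.

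Several other marker transcripts moved at the same time. After short exposure the root-hair markers CSLD1 and APY1 fell, the 2 measured of 3 listed, and their summed signal was 3982 to 4539 in the control and 2565 to 3496 in the FA channel. The dividing-cell markers CYCB1-1 and CYCB2-2 both fell, from a sum of 3776 to 5228 to one of 2853 to 3875. Of the root markers, RCc3 rose and the silicon transporters Lsi1 and Lsi2 fell. The summed signal of the 3 was 113543 to 144383 in the control and 140252 to 235843 in the FA channel. RCc3 carries most of this sum, which therefore does not show the fall of the other root markers. The part of these cell types in the PIP values was not tested.

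After long exposure no measured PIP locus was lower and 4 were higher. PIP2-4, PIP1-3, PIP2-5 and PIP1-2 rose, by 1.17-fold to 1.69-fold. Over all 18653 tested loci 27.4% were higher and 30.3% lower, against 4 and 0 of 9 PIP loci. The 5 loci not called had adjusted p-values of 0.11 to 0.70, and no PIP locus was lower at an unadjusted p under 0.05 or with the methods' t-test either. The median PIP ratio was 0.15, against -0.03 over all loci, and 2.5% of all loci but no PIP locus changed 2-fold. Among the 1252 tested loci with a mean signal of at least 10000, 28.7% were higher and 26.9% lower, with a median of -0.0028.

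PIP2-4 was again the highest of the PIP loci. It read 0.68, 0.70 and 0.88 on the long-exposure arrays, a mean of 0.76 ± 0.11 (SD, n = 3) or 1.69-fold (adjusted p = 0.0015, limma). Only 3.62% of all tested loci had a higher mean. Control signals were 2538 to 2763 and FA signals 4136 to 5098, so the 2 channels did not overlap.

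PIP1-3 was below 0 on all 3 short-exposure arrays, without passing, and higher after long exposure. Its ratios were -0.31, -0.03 and -0.17 after short exposure and 0.63, 0.44 and 0.73 after long exposure. On the long-exposure arrays its control signal was 10577, 12056 and 12854 and its FA signal 16319, 16366 and 21335. The mean of 0.60 ± 0.15 (SD, n = 3) is a 1.51-fold increase (adjusted p = 0.0027).

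PIP2-5 read 0.43, 0.35 and 0.51 after long exposure, a 1.35-fold increase (0.43 ± 0.08, SD, n = 3, adjusted p = 0.0042). PIP1-2 read 0.17, 0.33 and 0.17 and rose 1.17-fold (adjusted p = 0.036). The ratios of PIP1-2 did not overlap those of PIP2-5, the only such step between neighbours in the long-exposure order. Without the array of replicate 2, PIP1-2 was at 0.17 and no longer passed, nor did it with the methods' t-test (adjusted p = 0.139).

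The 4 loci that had fallen after short exposure were nearer the control level. PIP2-3 read -0.00062, 0.30 and 0.16, with a mean of 0.15 ± 0.15, and PIP1-1 read -0.11, 0.32 and 0.24, with a mean of 0.15 ± 0.23 (SD, n = 3). PIP2-1 averaged -0.11 ± 0.12 and PIP2-6 -0.04 ± 0.18. PIP2-2, which had not been called earlier, averaged 0.15 ± 0.09. None of these 5 passed the test with its brightest probe. The second probe of PIP2-2 averaged 0.22 and was called higher (adjusted p = 0.052, limma). PIP1-1, PIP2-2 and PIP2-3 each passed as higher under some alternative settings, with median centring for PIP2-2 and PIP2-3. Of the root-hair markers, CSLD1 fell further, from a mean of -0.55 after short to -0.96 after long exposure, while APY1 averaged -0.43 and then -0.07. The dividing-cell markers CYCB1-1 and CYCB2-2 averaged 0.06 and -0.06 after long exposure and did not pass. Summed FA signals were 3895 to 4481 for the root-hair and 4057 to 4789 for the dividing-cell list, against control sums of 4430 to 4530 and 4421 to 4774, and the brighter probe of each list, APY1 and CYCB2-2, carries most of its sum. All 3 root markers rose, from a control sum of 80874 to 105672 to an FA sum of 138420 to 145693. RCc3 again carries most of the sum. The part of the markers in the PIP values was not tested.

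The difference between exposures was tested directly on all 6 arrays, where a dye bias common to every array cancels. The FA/control ratio was lower after short than after long exposure at all 9 measured loci, except that PIP1-2 came out at 0.0012 when arrays were centred on their median and at up to 0.020 with 1 array left out. Over all tested loci 56.7% had a lower ratio after short exposure. The difference passed at 7 loci, against 46.8% of all loci in either direction, namely PIP2-3, PIP1-3, PIP1-1, PIP2-6, PIP2-2, PIP2-5 and PIP2-1. Over 19602 tested loci 27.5% were lower after short exposure and 19.3% higher, against 7 and 0 of the 9 PIP loci. At the same 7 loci every short-exposure value lay below every long-exposure value, which held for 31.2% of all loci. The median PIP difference was -0.30 and that of all loci -0.06.

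Most PIP probes were bright, and bright loci differed less often between exposures. Among the 1250 tested loci with a mean signal of at least 10000, 16.8% were lower after short exposure and 13.0% higher, with a median difference of -0.01. Of the measured PIP loci, PIP2-4 alone was under that signal, with a mean of 3230.

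PIP2-3 differed most, by -0.82 ± 0.10 (SE, adjusted p = 0.0012, limma), and 5.20% of all loci had a lower difference. PIP1-3 followed with -0.77 ± 0.11 (SE, adjusted p = 0.0025). Both kept their call with any 1 of the 6 arrays left out, with differences of -0.89 to -0.74 for PIP2-3 and -0.85 to -0.70 for PIP1-3, although each rests on a single probe.

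PIP1-1 differed by -0.43 ± 0.13 (SE, adjusted p = 0.034). The remaining 4 called loci had differences between -0.34 and -0.28 and adjusted p-values of 0.043 to 0.064. Their calls were less firm: with the short-exposure array of replicate 1 left out, 3 loci passed (PIP1-1, PIP1-3 and PIP2-3), and 3 also passed without the long-exposure array of replicate 2 or of replicate 3, PIP1-3 and PIP2-3 among them. The other locus in each case was PIP2-5 and PIP2-6, respectively. With slide as a random block 7 loci passed, but the estimated slide correlation was -0.11, which makes that fit the more lenient one, and slide lies within exposure. With 3 arrays on either side, the smallest p open to exact permutation of the labels is 0.1, so no such test was used for these calls.

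PIP1-2 and PIP2-4 did not pass. For PIP1-2 the difference was -0.04 ± 0.10 (SE, adjusted p = 0.77), and its short-exposure values of 0.06, 0.33 and 0.16 overlapped its long-exposure values, with 2 of them below every long-exposure value. For PIP2-4 it was -0.23 ± 0.12 (SE, adjusted p = 0.19). With their brightest probes both were above 0 on all 6 arrays, and they were the only measured loci of which this held. A second PIP1-2 probe read -0.0062 on the short-exposure array of replicate 1.

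**Figure D3:**
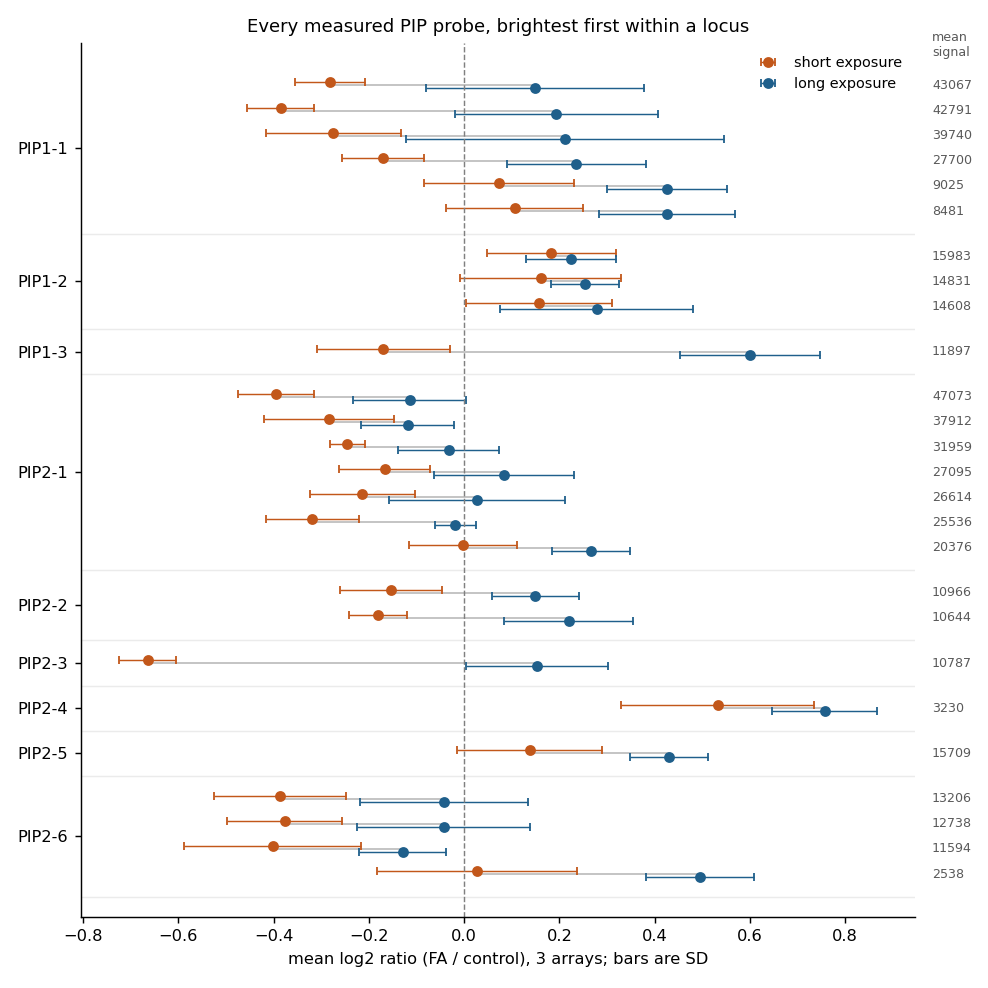
Mean log2 ratio of FA over control (horizontal axis, bars are the SD of 3 arrays, 2 arrays for 1 PIP2-6 probe after long exposure) for the 26 measured PIP probes, grouped by locus with the brightest probe on top and the mean processed signal at the right. With the deposited ratios the short-exposure mean lies to the left of the long-exposure mean for every probe, as for 54.8% of all tested probes. After median centring 1 PIP1-2 probe lay the other way, at 0.0012.

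Of the measured loci, 5 carried more than 1 probe, 22 probes together, and the probes of a locus did not read alike. In these sentences the signal only names a probe, since signals of different probes are not transcript levels. The 6 PIP1-1 probes averaged -0.39 to 0.11 after short exposure, and 3 of them were called lower, as were 39.4% of all tested probes. The probes with mean signals of 9025 and 8481 averaged 0.07 and 0.11, while the 4 with signals of 27700 and above averaged between -0.39 and -0.17. After long exposure those 2 dimmer probes averaged 0.43 each and were called higher, as was 1 of the others and 25.1% of all tested probes.

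The same held at PIP2-1 and PIP2-6. Of the 7 PIP2-1 probes 5 were called lower after short exposure, with means down to -0.39, and the dimmest, with a signal of 20376, averaged -0.0024. That probe averaged 0.27 after long exposure and was the only one of the 7 called higher. At PIP2-6 the 3 probes with signals of 11594 to 13206 averaged -0.40 to -0.38 after short exposure and all were called lower. The fourth, with a signal of 2538, averaged 0.03 ± 0.21, and after long exposure it averaged 0.49 (adjusted p = 0.0035), when the other 3 averaged -0.13 to -0.04.

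Whether PIP1-1, PIP2-1 or PIP2-6 counts as lower after short exposure therefore depends on the probe. What the probes shared was the direction between exposures. All 26 measured probes had a lower ratio after short than after long exposure with the deposited ratios and with normexp and loess. With the deposited ratios 54.8% of all tested probes had this direction. The PIP count was 25 of 26 when arrays were centred on their median, without the short-exposure array of replicate 1 and without the long-exposure array of replicate 2, the exception each time being a PIP1-2 probe. The difference passed for 18 of the 26, against 26.1% of all 28357 tested probes in that direction, and the 2 exposures did not overlap for 20, against 53.6% of all tested probes in either direction. With 1 array left out, 8 to 16 probes passed. The count was 8 of 26 without the short-exposure array of replicate 1 or the long-exposure array of replicate 2, and 13 of 25 without the long-exposure array of replicate 1 or of replicate 3. Every one of the 6 PIP1-1 probes passed, with differences of -0.58 to -0.32, as did 4 of 7 for PIP2-1, 3 of 4 for PIP2-6, both for PIP2-2 and none of 3 for PIP1-2. Probes of 1 locus share their RNA and are not replicates. Which probes can also bind the transcript of a related PIP gene was not tested.

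Within each exposure the lowest PIP values gathered on the array of replicate 1, while the highest were split between the other arrays, at 4 and 5 loci. On the short-exposure array of replicate 1 all 9 loci had their lowest short-exposure value, whereas that array held the lowest value for 27.8% of all tested loci and 33.1% of those with a signal of at least 10000. The median PIP ratio was -0.31 on it and -0.11 and -0.17 on the other two, while the medians of all loci were -0.07, -0.10 and -0.08. Among the long-exposure arrays, that of replicate 1 was lowest for 7 of the 9 loci, against 33.4% of all loci and 25.5% of those with a signal of at least 10000. Its median PIP ratio was 0.05, compared with 0.32 and 0.17 on the others. PIP2-3 was the lowest PIP locus on every short-exposure array and PIP2-4 the highest on all 6.

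The PIP1 and PIP2 groups both held loci that moved and loci that did not. The counts are small and lie beside the shares over all loci given above (39.7% lower and 28.3% higher after short, 27.4% higher after long exposure, 46.8% differing). Of the 3 PIP1 loci, 1 fell after short and 2 rose after long exposure, and 2 differed between exposures. Of the 6 measured PIP2 loci, 3 fell and 1 rose after short exposure, 2 rose after long exposure, and 5 differed between exposures. The median differences were -0.43 and -0.30. PIP2-4, PIP2-5 and PIP2-1 lie together on chromosome 7 in RefSeq, with 1 other gene among them, and their short-exposure means of 0.53, 0.14 and -0.39 spanned most of the range of the PIP loci.

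**Figure D4:**
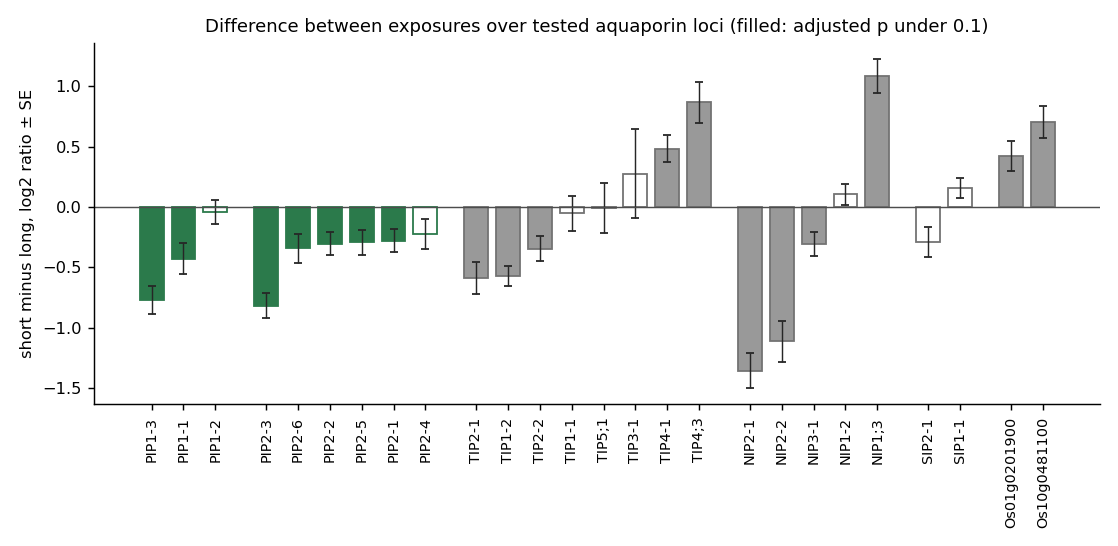
Short minus long difference of the log2 ratio (vertical axis, bars with SE) for the 9 measured PIP loci in green and 17 other tested aquaporin loci in grey, filled where the adjusted p is under 0.1. The PIP bars all point down, as 56.7% of all tested loci would. TIP, NIP and SIP loci point both ways, and the 2 loci without a subfamily point up. The small PIP1-2 bar turns to 0.0012 after median centring.

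The rest of the aquaporin family moved in both directions. Probes existed for 23 of 27 other MIP loci listed. Short exposure left 17 of them with enough signal to test, 7 higher and 7 lower. After long exposure 16 were tested, of which 7 were higher and 4 lower. Between exposures 5 of 17 were higher and 6 lower, with a median of -0.01, next to 0 and 7 of 9 for the PIP loci with a median of -0.30; this contrast of the PIP loci with the other MIP loci was not tested.

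After short exposure the changes of TIP4-1, NIP1-2, NIP2-1, NIP2-2, SIP2-1 and Os01g0201900 were larger than that of any measured PIP locus. After long exposure only the TIP locus named next changed more than every PIP locus, and no NIP locus did. Os01g0232000 (TIP4;3), a vacuolar aquaporin, fell after both exposures, to means of -0.58 and -1.45, and was the only MIP locus past 2-fold in either exposure (adjusted p = 0.0012 after long exposure, limma). Its probe was dim, with a mean signal of 136 and FA signals of 64.2 to 65.4 on the long-exposure arrays. TIP4-1 rose by 0.83 and 0.35, and TIP1-2, at -0.09 after short exposure, rose by 0.49 after long exposure. Among the NIPs, NIP1-2 rose by 0.72 and 0.61, and NIP2-2, a silicon channel, fell by 0.97 after short exposure and was at 0.14 after long exposure. Os05g0205000 (NIP1;3) rose by 0.62 and then fell by 0.47.

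NIP2-1, the silicon influx channel Lsi1, read -0.97, -0.69 and -1.02 after short exposure and 0.21, 0.52 and 0.66 after long exposure. Its difference of -1.36 (adjusted p = 0.00064) was larger than that of PIP2-3 and had the same sign. SIP2-1 fell after both exposures, by 0.82 and 0.53, and SIP1-1 rose by 0.30 after short exposure. Of the loci without a subfamily, Os01g0201900 rose by 0.78 and 0.36, and Os10g0481100 fell by 0.57 after long exposure. The probes of SIP2-1, Os01g0201900 and Os10g0481100 were dim, with mean signals of 89.2, 201 and 82.4. PIP2-8 (Os03g0861300), a further PIP2 locus outside the 10, had a mean signal of 64.9. It was well above background in both channels on all 6 arrays, but under the signal minimum of 100 and so not tested. Its ratios were -0.19, -0.59 and 0.14 after short and -0.63, -0.28 and -0.39 after long exposure. Their means of -0.21 and -0.43 lie in the opposite order to those of the 9 measured PIP loci, and the 2 exposures overlap.

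Outside the aquaporins, 5 loci of 16683 compared had ratios closest to the median PIP ratio on each of the 6 arrays (-0.31, -0.11 and -0.17 after short, 0.05, 0.32 and 0.17 after long exposure). They were Os09g0255000, Os04g0448600, Os04g0608100, Os01g0842500 and Os02g0833600, the last listed in the study's tables as the bZIP transcription factor OsbZIP24. The root mean square difference from the PIP median over the 6 arrays was 0.05 for the first and 0.07 for the others. Closest to the PIP median, Os09g0255000 read -0.28, -0.05 and -0.21 after short exposure and -0.02, 0.26 and 0.12 after long exposure.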

How the data were processed

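Root RNA was compared on 6 two-colour arrays, 3 per exposure, grouped by the sample labels. The authors extracted the spots with Agilent's Feature Extraction, version 10.7.1.1 per the file headers. The deposited log10 ratio of red (FA) over green (control) comes from the authors' software, which took processed intensity values after background correction and LOWESS dye normalization. The log2 ratios of a second deposited table matched log2 of processed red over green within 1e-04 for all 41882 one-spot probes compared on each array, so its scale and direction are known.

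For this report log10 was turned into log2, 2007 control spots and spots marked as outliers were left out, and spots of a probe were averaged. Probes entered the tests if either channel's processed signal reached 100 on 1 array or more and 2 arrays gave a value. Tests were lmFit and eBayes of limma 3.58.1 (R 4.3.3), each exposure against 0 and short minus long on 6 arrays, with Benjamini-Hochberg adjustment over all tested probes. A locus was called at an adjusted p under 0.1, also the limit of the study's methods, which add a 2-fold change. A locus took its probe with the highest mean signal. With 3 arrays an exact sign test cannot go below p = 0.25. No counting depth exists for arrays, and the number of arrays limits the precision. A ratio against 0 is open to dye bias, since dyes were never exchanged.

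The genes named are all 10 PIP loci and their probes, PIP2-8, for each other subfamily and exposure the called locus with the largest increase and decrease, the marker genes (NIP2-1 is one), and the 5 loci nearest the PIP median. Also named are TIP1-1 and the other MIP loci called lower after short than after long exposure. Members and lists were chosen with earlier results of these data known. Alternatives were normexp (offset 50) with loess, median centring, the second table, 3 other filters, leaving out single arrays, a random slide block, the methods' t-test, a joint fit of both exposures, the median over a locus's probes and the replicate number as a block. Procedures were tested on simulated data. RefSeq gave names and gene order only, and probe and promoter sequences were not used here. Python 3.11.15 with pandas 2.3.3, scipy 1.17.1, numpy 2.4.6 and matplotlib 3.10.9 made the tables and figures.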

Additional observations from a re-analysis of the deposited data

Results flagged for a closer look

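At 7 PIP loci the response to FA differed between short and long exposure by a direct test on all 6 arrays. The short minus long difference in log2 ratio was -0.82 at PIP2-3, -0.77 at PIP1-3, -0.43 at PIP1-1, -0.34 at PIP2-6, -0.30 at PIP2-2, -0.29 at PIP2-5 and -0.28 at PIP2-1 (limma, adjusted p under 0.1 for each). Of all tested loci, 46.8% met the same limit in either direction. At PIP1-1, PIP1-3, PIP2-2 and PIP2-3 the mean lay below 0 after short and above 0 after long exposure. With the brightest probe and the tests as reported no locus passed on both sides of 0, though PIP1-3 did with normexp and loess. The second PIP2-2 probe did, at -0.18 after short and 0.22 after long exposure (limma, adjusted p of 0.079 and 0.052). The next sentence again concerns the brightest probes. The short-exposure mean passed at PIP1-1 and PIP2-3 and the long-exposure mean at PIP1-3. Slide and exposure cannot be told apart in this difference. Groups of 3 arrays were too small to look for single outlying values.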

How the results depend on the processing

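Arrays number 3 per exposure, and leaving out 1 array moved several calls. After short exposure 3 to 5 PIP loci were lower and 1 higher, after long exposure 3 to 5 were higher and 0 lower, and between exposures 3 to 7 differed, with 3 each without the short-exposure array of replicate 1 and the long-exposure arrays of replicates 2 and 3. PIP1-3 and PIP2-3 differed between exposures under every alternative run. The count lower after short exposure, 4 as reported, was 6 with normexp and loess and 6 with all arrays in one fit. The count higher after short exposure, 1 as reported, was 3 with median centring, 2 when each array had to reach a signal of 100, 2 with all arrays in one fit and 0 with the methods' t-test. The count lower after long exposure, 0 as reported, was 1 with normexp and loess and 1 with the value table, which was PIP2-7, a locus not well above background.

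Values near 0 changed sign. PIP2-1 after long exposure was at 0.0056 with normexp and loess, and PIP2-6 ranged from -0.14 to 0.015 with 1 array left out. The difference between exposures at PIP1-2 was 0.0012 after median centring and -0.11 to 0.020 with 1 array left out. For PIP2-7 that difference was 0.080 with normexp and loess, 0.047 with the value table and -0.65 to 0.11 with 1 array left out, and its long-exposure ratio was -0.64 with the value table, -0.35 with normexp and loess and -0.17 to 0.0 with 1 array left out.

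Over 27017 probes same-numbered arrays deviated from their exposure means with r of -0.08, -0.01 and 0.14. Differently numbered arrays gave r of -0.24 to 0.26, so replicate numbers showed no pairing over all probes. At the PIP loci the array of replicate 1 was lowest at 9 of 9 loci after short and 7 of 9 after long exposure. Pairing at these loci alone was not tested. With the replicate number as a block 7 PIP loci differed between exposures, as without it. PIP2-5 and PIP2-6 no longer passed with the methods' t-test, nor did PIP2-6 with no signal filter. Of the 26 measured probes, 13 passed with that t-test, 14 with no signal filter and 15 with the block. The count was 18 as reported and 20 with normexp and loess. The shares of all tested probes in that direction were 21.7%, 16.9%, 24.1%, 26.1% and 21.2%. Slide as a random block within short exposure could not be fitted, and long exposure had 1 slide. The cause of these changes was not tested. PIP2-7 is limited by its signal, which lay near background.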
